A study of Homo sapiens with 3 samples.

Results

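Nonsense-mediated decay (NMD) removes mRNAs on which translation stops too early. The factors described here are 9 core proteins of this pathway, and their genes were taken from the deposited gene counts by symbol: UPF1, UPF2, UPF3A, UPF3B, SMG1, SMG5, SMG6, SMG8 and SMG9. All 9 of 9 were among the 58735 genes counted, and all 9 averaged 10 CPM or more, the count of a gene scaled to a common library size. The rule uses gene names alone, and the genes were listed with earlier results of these data known.

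RNA was sequenced from A549, an established human lung adenocarcinoma line, to compare cells with and without knockdown of DDX24, a DEAD-box RNA helicase. There were 3 libraries, 1 per group. The groups were control cells (Control-sh) and cells in which DDX24 was targeted by either of 2 shRNAs (DDX24-sh1 or DDX24-sh2), all grown in F12K medium with fetal bovine serum. According to the study's methods, the lines carried lentiviral pLKO.1 vectors and were selected and kept in puromycin. The control is given as the empty vector in one place and as a control shRNA in another, and which of them this library holds is not known. Stable lines made in this way are a model of lasting knockdown, and no group has a second library.

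Library totals ran from 17218884 to 18337471 counts. From here on, 3 values given together for a gene are those of Control-sh, DDX24-sh1 and DDX24-sh2, in that order, and 2 values those of the shRNA libraries. DDX24 itself had 2010, 637 and 765 counts, and the shRNA libraries thus held 29.6% and 36.0% of the control level after scaling. The epithelial keratin genes KRT7, KRT8 and KRT18 were abundant, and 5 epithelial markers ranged up to 3800 scaled CPM, with EPCAM the lowest, at 1.59 to 1.87. The 3 leukocyte, 2 endothelial and 2 alveolar type 2 markers stayed at or below 0.879 CPM, and of 2 fibroblast genes COL1A1 reached 9.51. Mitochondrial genes took 4.36%, 5.13% and 7.04% of counts, and the part of this difference in any result was not tested. In the deposited FPKM values, which are counts divided by gene length and library size, the names of the shRNA libraries were exchanged relative to the counts. The FPKM of Control-sh followed its counts for 100% of 11962 genes, whereas 5.23% and 5.17% of genes did so for the shRNA libraries as labelled and 100% did so once the labels were exchanged. It is not known which of the labels is right, and the names used here are those of the count tables.

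In NMD, a ribosome that terminates upstream of an exon junction complex leaves the helicase UPF1 in contact with UPF2 and UPF3B, which bridge it to that complex. The kinase SMG1, together with its partners SMG8 and SMG9, phosphorylates UPF1. Phosphorylated UPF1 is bound by SMG6, an endonuclease that cuts the mRNA near the stop codon, and by SMG5, which helps to bring in deadenylation and decapping enzymes and to return UPF1 to its unphosphorylated state. The mRNAs of several of these factors are known to be NMD substrates themselves.

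SMG1 has near-identical copies in the genome, and the gene counts cannot be read without them. In the annotation used for the counts, 7 genes are named as SMG1 pseudogenes. The following stretch of 60 coding bases lies in exon 2 of the principal SMG1 transcript, on the minus strand at chr16:18896869-18896928 of GRCh38, with its first base at coding position 121. It is shown beside its copy in SMG1P1 to illustrate how a read can fit both genes, and the capital marks the base of the copy that differs from SMG1.
SMG1: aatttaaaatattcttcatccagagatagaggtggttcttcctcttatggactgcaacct
SMG1P1: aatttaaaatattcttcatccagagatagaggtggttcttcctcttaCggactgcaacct
The copies in SMG1P2, SMG1P3, SMG1P4 and SMG1P5 were the same as that of SMG1P1 in this window. Of the distinct 50-base words in all annotated SMG1 transcripts, 14.4% occur in other annotated genes, and of the 100-base words 7.51% do. In the principal transcript, which is 16115 bases long, the words shared with the SMG1 pseudogenes all lie in the 5′ part. The 200-base bin starting at base 4401 shared 51.0% of its 50-base words, and every bin from base 4601 onward shared 0%. The larger part of the SMG1 transcript, including all of its 3′ end, therefore has no exact 50-base word in a named pseudogene. How reads that fit several genes were counted is not given in the sources used here.

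**Figure D1:**
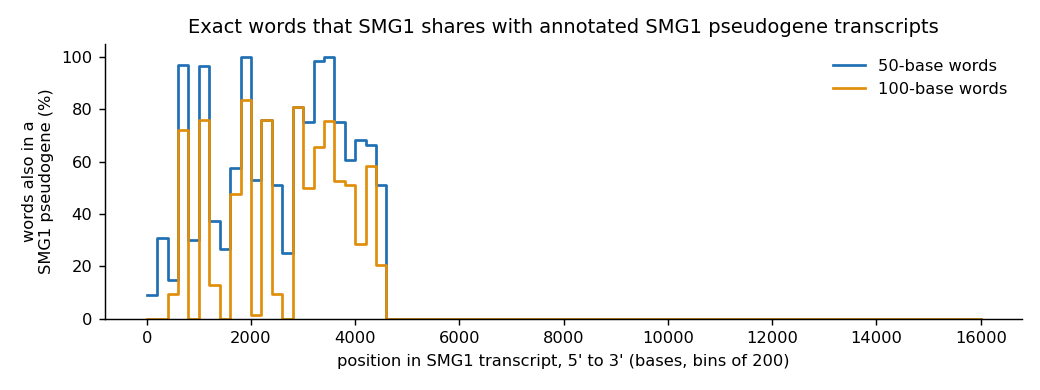
Percent of the words starting in each 200-base bin of the principal SMG1 transcript (x axis, position in bases from the 5′ end) that are also found in an annotated SMG1 pseudogene transcript (y axis), for 50-base and 100-base words. Sharing ends before base 4601 of 16115.

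UPF1, SMG1, SMG5 and SMG9 were lower in both shRNA libraries than in Control-sh, at 67.7% to 88.5% of its level, whereas SMG8 was higher in both. UPF2 and UPF3B were lower and SMG6 was higher in DDX24-sh1 alone, and UPF3A lay on different sides of the control in the shRNA libraries. A ratio is given here as the log2 ratio of scaled CPM (TMM scaling, prior count of 2), with its exact 95% interval from the 2 counts. Such an interval covers counting error only. Reads that carry no molecular identifier cannot be taken as independent molecules, and variation between cultures is not in it. A gene was called higher or lower where the whole interval lay on one side of 0. With 1 library per group, no test between the groups was possible. Both ratios to the control use the same control library, so they are given side by side and not as independent results.

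In DDX24-sh1, 2 members were called higher and 7 lower. Of the 13984 genes averaging 1 CPM or more, 23.6% were called higher and 29.5% lower by the same rule. As abundant genes have narrow intervals, the shares were also taken over the 9661 genes averaging 10 CPM or more, where they were 26.4% and 35.7%. In DDX24-sh2, 2 members were called higher and 4 lower, beside 23.6% and 30.8% of all genes and 25.0% and 37.2% of the abundant ones. In both libraries together, 1 member (SMG8) was called higher and 4 members (UPF1, SMG1, SMG5 and SMG9) were called lower. Over all genes these shares were 14.0% and 20.6%. They were not taken over the abundant genes, whose shares were the larger ones in each single library. The number of members called lower was thus above the background share in DDX24-sh1, and nearer to it in DDX24-sh2. No member reached a 2-fold difference in either direction, a size met by 2.32% of genes higher and 2.27% lower in DDX24-sh1, and by 2.89% and 3.07% in DDX24-sh2. The median log2 ratio of the 9 members was -0.21 and -0.13, where the medians of all genes were -0.02 and -0.03.

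**Figure D2:**
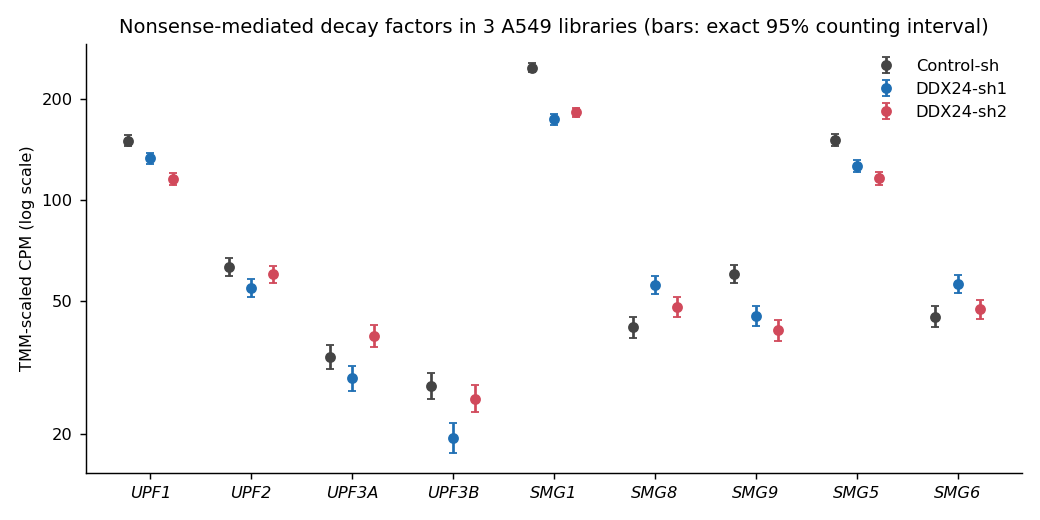
Scaled CPM (y axis, log scale) of each NMD factor (x axis) in the 3 libraries, 1 point per library, with exact 95% counting intervals. The shRNA points of SMG1 (174 and 183) lie below its control point (248), whereas the SMG8 points (55.8 and 47.8) lie above it (41.6).

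UPF1, the ATP-dependent RNA helicase at the centre of NMD (ENSG00000005007, chr19:18831938-18868236, plus strand), had 2567, 2435 and 2086 counts. Its scaled levels were 150, 133 and 116 CPM. The log2 ratios to the control were -0.18 (-0.26 to -0.10) and -0.38 (-0.46 to -0.30). UPF1 was therefore lower in both shRNA libraries, with DDX24-sh2 below DDX24-sh1 by a log2 ratio of -0.20 (-0.29 to -0.12).

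UPF2, the adaptor that joins UPF1 to UPF3B (ENSG00000151461, chr10:11920022-12043170, minus strand), had 1074, 1000 and 1080 counts, or 62.9, 54.7 and 59.8 CPM. Its log2 ratio was -0.20 (-0.33 to -0.08) in DDX24-sh1 and -0.07 (-0.20 to 0.05) in DDX24-sh2. Only the first was beyond counting error, and at this depth no difference from the control was detectable in DDX24-sh2.

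UPF3B binds the exon junction complex (ENSG00000125351, chrX:119805311-119852998, minus strand). Its counts were 474, 355 and 459, or 27.8, 19.4 and 25.4 CPM. The library DDX24-sh1 was at 69.9% of the control, with a log2 ratio of -0.51 (-0.72 to -0.32), and 10.4% of all genes had a lower ratio there. In DDX24-sh2 the ratio was -0.13 (-0.32 to 0.06), and the 2 shRNA libraries differed by 0.39 (0.19 to 0.59). UPF3B was thus low in a single library, the one labelled DDX24-sh1.

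UPF3A, the paralogue of UPF3B and a weaker NMD factor (ENSG00000169062, chr13:114281584-114305817, plus strand), had 580, 536 and 706 counts, or 34.0, 29.3 and 39.1 CPM. It was lower than the control in DDX24-sh1, at -0.21 (-0.39 to -0.04), and higher in DDX24-sh2, at 0.20 (0.04 to 0.36). The ratio of DDX24-sh2 to DDX24-sh1, which does not use the control, was 0.42 (0.25 to 0.58). No other member lay on opposite sides of the control beyond counting error in both libraries. Of the 50-base words in the principal UPF3A transcript, 42.1% occur in other annotated genes, and of the 100-base words 25.7% do. Over all its annotated transcripts, UPF3A shares 17.1% of its 50-base words and 10.8% of its 100-base words with other annotated genes. These genes are mainly its 3 pseudogenes, which had 3, 28 and 11 counts in sum. With these added, the ratio in DDX24-sh1 was -0.15 (-0.32 to 0.02), no longer beyond counting error, and that in DDX24-sh2 was 0.22 (0.06 to 0.38).

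The ratio of UPF3A to UPF3B per kilobase of gene length needs no library scaling. It was 0.653 (0.578 to 0.739), 0.806 (0.703 to 0.924) and 0.821 (0.729 to 0.925). Which paralogue stands higher depends on the length used. The gene models, which join all annotated exons, are 5772 and 3081 bases long, whereas the principal transcripts have 2387 and 2378 bases, and per length of these the ratio was above 1, at 1.22, 1.504 and 1.53. The comparison of the ratio between libraries does not depend on which of these fixed lengths is used. Whether the mix of transcripts of either gene differed between libraries was not measured. Relative to the control, the ratio was 1.23-fold (1.03 to 1.48) and 1.26-fold (1.06 to 1.49), and between the shRNA libraries it was 1.02-fold (0.849 to 1.22). Although each paralogue differed between the shRNA libraries, no difference in their ratio was detectable between these libraries.

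Within the kinase complex, the catalytic subunit and one partner were low whereas the other partner was high. SMG1, a kinase of the PI3K-related family (ENSG00000157106, chr16:18804853-18926454, minus strand), had 4237, 3182 and 3295 counts, or 248, 174 and 183 CPM. The shRNA libraries were at 70.1% and 73.5% of the control, with log2 ratios of -0.51 (-0.58 to -0.45) and -0.44 (-0.51 to -0.38). Both shRNA libraries lay well below the control. With SMG1 counted without its copies, these libraries did not differ from each other beyond counting error (0.07, -0.0013 to 0.14). Of all genes, 10.5% and 14.6% had a lower ratio.

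The 7 SMG1 pseudogenes together had 434, 432 and 525 counts. Their summed log2 ratio was -0.11 (-0.30 to 0.09) in DDX24-sh1 and 0.19 (0.0077 to 0.38) in DDX24-sh2. The copies differed among themselves. SMG1P1, the most abundant, had 260, 269 and 267 counts and ratios of -0.05 and -0.04. SMG1P3 had 59, 36 and 36 counts and was lower in both shRNA libraries, at -0.78 (-1.45 to -0.19) and -0.76 (-1.43 to -0.17), and SMG1P2 (58, 39 and 84 counts) was lower in DDX24-sh1 alone, at -0.65 (-1.30 to -0.06). SMG1P7, with 14, 33 and 74 counts, was higher in both, and SMG1P5 (35, 41 and 59 counts) was higher in DDX24-sh2 alone, at 0.64 (0.05 to 1.32). With SMG1 and its copies added, the ratio was -0.47 (-0.53 to -0.41) and -0.37 (-0.43 to -0.31). DDX24-sh2 then lay above DDX24-sh1 beyond counting error, by a log2 ratio of 0.10 (0.03 to 0.17). SMG1 also has the longest exonic gene model of the members, at 25988 bases. Among genes averaging 10 CPM or more, the median log2 ratio was 0.05 in DDX24-sh1 for the 721 genes under 2000 bases and -0.11 for the 1292 genes of at least 10000 bases. In DDX24-sh2 these medians were -0.0031 and -0.11. SMG6, the other member in the longest class (10554 bases), had ratios of 0.32 (0.19 to 0.46) and 0.07 (-0.07 to 0.21). The part of gene length in the ratios of SMG1 and SMG6 was not tested.

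SMG9, which connects SMG8 to SMG1 (ENSG00000105771, chr19:43727992-43754990, minus strand), had 1027, 821 and 735 counts, or 60.2, 44.9 and 40.7 CPM. Its level was 74.6% of the control in DDX24-sh1 and 67.7% in DDX24-sh2, with log2 ratios of -0.42 (-0.56 to -0.29) and -0.56 (-0.70 to -0.43). The latter was the lowest ratio of any member in DDX24-sh2, where 10.2% of all genes were lower still. Both shRNA libraries were below the control, and no difference between them was detectable (-0.14, -0.29 to 0.0048).

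SMG8, a regulatory partner that restrains SMG1 kinase activity (ENSG00000167447, chr17:59209400-59215247, plus strand), had 710, 1020 and 863 counts, or 41.6, 55.8 and 47.8 CPM. It was the one member above the control beyond counting error in both libraries, at 134% and 115% of the control level. The log2 ratios were 0.42 (0.28 to 0.56) and 0.20 (0.06 to 0.35). DDX24-sh2 lay below DDX24-sh1, by a log2 ratio of -0.22 (-0.35 to -0.09). A gene on the same strand, AC099850.2, shares 9.83% of the 50-base words of SMG8 and was listed with 0 counts in all 3 libraries, and how reads of the shared part were counted is not known.

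Among the RNAs of the kinase complex, the ratios of SMG8 to SMG1 and to SMG9 differed from the control beyond counting error in both shRNA libraries. Per length, SMG8 stood at 1.16, 2.22 and 1.81 times SMG1 by gene model and at 0.777, 1.49 and 1.21 times by principal transcript. This ratio was 1.91-fold (1.72 to 2.13) that of the control in DDX24-sh1 and 1.56-fold (1.40 to 1.75) in DDX24-sh2. By contrast, SMG9 stood at 0.795, 0.846 and 0.731 times SMG1, and this ratio was 1.06-fold (0.959 to 1.18) and 0.920-fold (0.827 to 1.02) that of the control, so no difference from the control was detectable. SMG8 to SMG9 gave 1.46, 2.62 and 2.48, or 1.80-fold (1.57 to 2.06) and 1.70-fold (1.48 to 1.95) the control. In DDX24-sh2 against DDX24-sh1, SMG9 to SMG1 was lower beyond counting error, at 0.865-fold (0.773 to 0.967). SMG8 to SMG1 was also lower there, at 0.817-fold (0.736 to 0.907). For SMG8 to SMG9 no difference between the shRNA libraries was detectable (0.945-fold, 0.824 to 1.08). These pairs, and those of SMG6 with SMG5 and of UPF1 with UPF2, were chosen after the members' values were seen.

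The effectors stood on different sides of the control in DDX24-sh1. SMG5, an adaptor that binds phosphorylated UPF1 (ENSG00000198952, chr1:156249224-156282825, minus strand), had 2580, 2305 and 2092 counts, or 151, 126 and 116 CPM. Both shRNA libraries lay below the control, with log2 ratios of -0.26 (-0.34 to -0.18) and -0.38 (-0.47 to -0.30). DDX24-sh2 lay below DDX24-sh1, at -0.12 (-0.21 to -0.03), so SMG5 had the same order of libraries as UPF1.

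SMG6, the endonuclease (ENSG00000070366, chr17:2059839-2303771, minus strand), had 764, 1024 and 849 counts, or 44.8, 56.0 and 47.0 CPM. The log2 ratio was 0.32 (0.19 to 0.46) in DDX24-sh1 and 0.07 (-0.07 to 0.21) in DDX24-sh2. SMG6 was therefore above the control in DDX24-sh1, and in DDX24-sh2 no difference was detectable. DDX24-sh2 lay below DDX24-sh1 by a log2 ratio of -0.25 (-0.38 to -0.12). The exons of SMG6 overlap those of HIC1 on the opposite strand over 2419 bases, 22.9% of its exonic length. HIC1 had 38, 41 and 34 counts, and the strandedness of the counting is not given in the sources used here.

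Per length, SMG6 stood at 0.149, 0.223 and 0.204 times SMG5. That is 1.5-fold (1.34 to 1.68) and 1.37-fold (1.22 to 1.54) the control ratio, so the endonuclease was higher relative to the adaptor in both shRNA libraries. UPF1 to UPF2 was 1.64 in Control-sh and 1.67 in DDX24-sh1, with no detectable difference (1.02-fold, 0.918 to 1.13), and 1.33 in DDX24-sh2, 0.808-fold (0.729 to 0.896) the control.

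**Figure D3:**
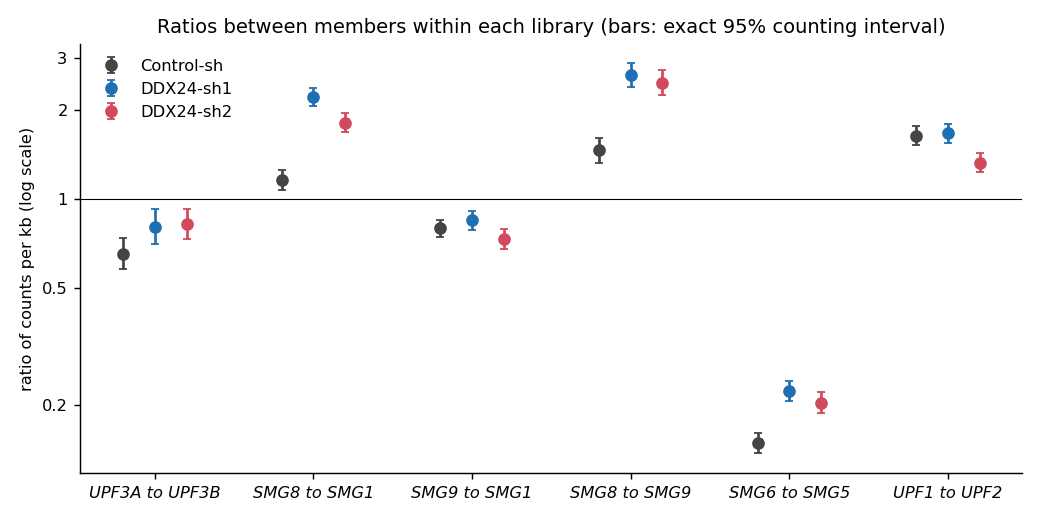
Ratio of 2 members' counts per kilobase of gene model (y axis, log scale) within each library, for 6 pairs (x axis), with exact 95% counting intervals. SMG8 to SMG1, SMG8 to SMG9 and SMG6 to SMG5 are higher in both shRNA libraries than in Control-sh. SMG9 to SMG1 (0.795, 0.846 and 0.731) differs beyond counting error between the shRNA libraries only.

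Between the shRNA libraries, 3 members (UPF2, UPF3A and UPF3B) were called higher in DDX24-sh2 than in DDX24-sh1 and 4 members (UPF1, SMG5, SMG6 and SMG8) were called lower. Over all genes these shares were 21.0% and 23.8%, and over genes averaging 10 CPM or more they were 23.5% and 28.5%. The interval of UPF2 came close to 0, at 0.0047 to 0.26. SMG1 and SMG9 were the 2 members without a call in this comparison. With its copies added, SMG1 was higher in DDX24-sh2 than in DDX24-sh1, at 0.10 (0.03 to 0.17).

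**Figure D4:**
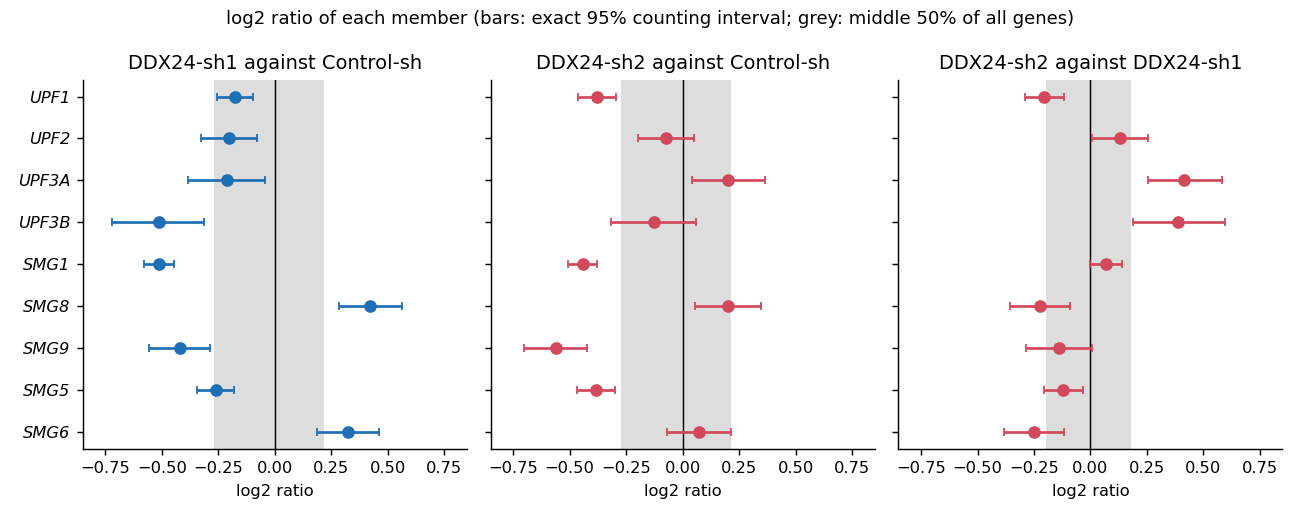
Log2 ratio (x axis) of each NMD factor (y axis) in DDX24-sh1 against Control-sh, DDX24-sh2 against Control-sh and DDX24-sh2 against DDX24-sh1, with exact 95% counting intervals. The grey band spans the lower to the upper quartile of all 13984 genes (-0.26 to 0.21, -0.27 to 0.21 and -0.19 to 0.18), and SMG1 and SMG9 lie left of it in both comparisons with Control-sh.

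Summed over the 9 members, counts were 14013, 12678 and 12165, or 821, 693 and 674 CPM. The log2 ratio of the sum was -0.24 (-0.28 to -0.21) in DDX24-sh1 and -0.28 (-0.32 to -0.25) in DDX24-sh2. SMG1 alone took 30.2%, 25.1% and 27.1% of the sum, so the sum weights this one gene most.

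Levels between members were compared per kilobase, and their order depends on the length used. By gene model, the CPM per kilobase in Control-sh was 28.5 for SMG5, 17.5 for UPF1, 11.1 for SMG8, 10.7 for UPF2, 9.55 for SMG1, 9.01 for UPF3B, 7.59 for SMG9, 5.89 for UPF3A and 4.24 for SMG6. By principal transcript, it was 33.2 for SMG5, 28.3 for UPF1, 15.4 for SMG1, 14.2 for UPF3A, 12.0 for SMG8, 11.7 for UPF3B, 11.3 for UPF2, 10.9 for SMG9 and 7.51 for SMG6. SMG5 and UPF1 stood first and second and SMG6 last by either length, and each of these was apart from its neighbour beyond counting error. By gene model, SMG8 and UPF2 could not be told apart, nor could SMG1 and UPF3B, and by transcript SMG1 and UPF3A could not, nor could any neighbours from SMG8 to SMG9. UPF3A, above SMG8 by one length and below it by the other, has no settled place.

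In both shRNA libraries SMG5 and UPF1 again stood first and second by either length, although by gene model SMG8 lay within counting error of UPF1 in both. By gene model, SMG5, UPF1 and SMG8 had 23.8, 15.5 and 14.9 CPM per kilobase in DDX24-sh1 and 21.9, 13.4 and 12.7 in DDX24-sh2. By principal transcript, UPF1 was well above SMG8, at 25.1 against 16.04 in DDX24-sh1 and 21.8 against 13.8 in DDX24-sh2. SMG8 stood above SMG1 in both shRNA libraries by either length, and in Control-sh by gene model only. SMG9 and SMG6 shared the low end in DDX24-sh2 by either length, at 5.14 and 4.46 by gene model and at 7.39 and 7.89 by transcript, where they could not be told apart.

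The members differ in transcript features that bear on NMD itself, since a long 3′ UTR or an intron after the stop codon can make an mRNA a substrate. The principal transcript of SMG1 has 63 exons and a 3′ UTR of 4716 bases, longer than in 92.4% of the 12397 coding genes averaging 1 CPM or more. SMG9 has 14 exons and a 3′ UTR of 3604 bases, longer than in 86.7%. SMG8, in contrast, has 5 exons and a 3′ UTR of 237 bases, with 14.1% of genes having a shorter one. The other members lay between 856 bases (UPF3B) and 1712 bases (UPF1), and the median over coding genes was 1077. UPF1 and SMG5 (1363 bases), which were also called lower in both shRNA libraries, are in this range. Any link of these features to the log2 ratios was not tested. In the principal transcript of UPF1, 1 exon starts after the stop codon, and in those of the other members none does. How far after the stop codon this exon of UPF1 starts was not measured, so whether it bears on NMD is not known. Transcripts annotated as NMD targets exist for SMG1, SMG8 and SMG9, 1 each, and for 42.9% of coding genes. Counts per gene cannot separate such transcripts from the others.

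Promoters are shown for the 4 members called lower in both shRNA libraries, to let their upstream sequence be compared. They are taken from RefSeq (GRCh38.p14), read on the strand of the gene, and cut where an annotated exon begins. Of the 9 members, 8 had an entry, and SMG8 had none. Capitals mark matches on either strand to GGGCGG, the core of the GC box, or to CCAAT, the core of the CCAAT box. UPF1 is at chr19:18831709-18831937 (plus strand), SMG1 at chr16:18926455-18926658, SMG5 at chr1:156282826-156283075 and SMG9 at chr19:43754991-43755212 (all minus strand).
UPF1: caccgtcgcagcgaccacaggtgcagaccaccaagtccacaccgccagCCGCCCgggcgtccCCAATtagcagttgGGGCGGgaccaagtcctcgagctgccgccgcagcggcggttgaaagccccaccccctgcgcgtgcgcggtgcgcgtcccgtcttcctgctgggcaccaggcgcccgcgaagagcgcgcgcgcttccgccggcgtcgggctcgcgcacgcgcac
SMG1: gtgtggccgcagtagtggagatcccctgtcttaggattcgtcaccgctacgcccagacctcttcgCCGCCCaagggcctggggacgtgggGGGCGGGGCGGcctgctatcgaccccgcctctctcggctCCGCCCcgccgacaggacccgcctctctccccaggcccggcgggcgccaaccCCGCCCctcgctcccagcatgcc
SMG5: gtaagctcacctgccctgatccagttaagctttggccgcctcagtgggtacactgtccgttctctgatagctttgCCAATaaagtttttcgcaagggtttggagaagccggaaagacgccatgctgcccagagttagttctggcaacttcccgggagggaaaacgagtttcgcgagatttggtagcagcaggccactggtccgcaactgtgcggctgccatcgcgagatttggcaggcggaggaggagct
SMG9: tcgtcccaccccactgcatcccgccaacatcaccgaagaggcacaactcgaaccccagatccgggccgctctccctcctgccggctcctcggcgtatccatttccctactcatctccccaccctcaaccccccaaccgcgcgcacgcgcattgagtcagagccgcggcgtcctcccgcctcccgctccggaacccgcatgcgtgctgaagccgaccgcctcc
The 4 sequences have no motif of this search in common. SMG1 has 5 GC box matches, UPF1 has 2 and a CCAAT match, SMG5 has a CCAAT match only, and SMG9 has no match. Over the 250 bases upstream of the start, GGGCGG was found on either strand in 6 of the 8 members and in 42.3% of 27305 promoters, and CCAAT in 4 of 8 and in 33.0%. CCGGAAG, the core of ETS sites, was found in 1 of 8 (UPF3A) and in 8.82% of promoters. GCGCATGCG, TGACGTCA and TATAAA were found in 0 of 8, and in 1.78%, 1.77% and 11.1% of promoters. These are matches of letters and not binding sites. None of the motifs searched contains another, and matches to GGGCGG may overlap one another.

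Other genes of mRNA surveillance and decay were counted on lists of their own, of which each gene passed the limit of 1 CPM. Counts of genes called are to be read against the shares over all genes, 23.6% higher and 29.5% lower in DDX24-sh1 and 23.6% and 30.8% in DDX24-sh2, or, over genes averaging 10 CPM or more, 26.4% and 35.7%, and 25.0% and 37.2%. Among 10 genes of the exon junction complex, 1 was higher and 5 lower in DDX24-sh1 and 2 were higher and 5 lower in DDX24-sh2, with medians of -0.14 and -0.09. MAGOH, a core subunit, had 231, 199 and 195 counts and log2 ratios of -0.31 and -0.32. CASC3, the peripheral core subunit, had 2000, 1741 and 1689 counts and ratios of -0.30 and -0.32. These differences were of the same order as those of UPF1 and SMG5.

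Of 17 other NMD and termination factors, 4 were higher and 8 lower in each shRNA library, with medians of -0.08 and -0.06. MOV10, an RNA helicase that binds UPF1, was higher, with 493, 723 and 721 counts and ratios of 0.45 and 0.47. PABPC1, the cytoplasmic poly(A)-binding protein that opposes NMD when close to a stop codon, was lower, with 17224, 12593 and 14156 counts and ratios of -0.55 and -0.36.

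The enzymes that act after NMD has marked an mRNA were counted in 3 lists. Among 9 decapping and 5′ decay genes, 0 were higher in either library, and 6 were lower in DDX24-sh1 and 4 in DDX24-sh2, with medians of -0.22 and -0.12. DCP1A, a decapping activator, had 457, 229 and 265 counts and ratios of -1.09 and -0.86. It was the only one of these 9 genes past 2-fold, and it was past it in DDX24-sh1 alone. PATL1, a scaffold of decapping, had 1661, 1302 and 1362 counts and ratios of -0.45 and -0.37.

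Of 13 deadenylase genes, 0 were higher and 9 (69.2%) lower in DDX24-sh1, beside 23.6% and 29.5% of all genes, and 2 were higher and 7 (53.8%) lower in DDX24-sh2, beside 23.6% and 30.8%. Their medians were -0.25 and -0.27. The scaffold CNOT1 (6046, 4727 and 4618 counts) had ratios of -0.45 and -0.47, and CNOT3 (1960, 1406 and 1333 counts) had -0.58 and -0.64. In the exosome and SKI complex, 15 genes of 3′ to 5′ decay, 2 were higher and 7 lower in DDX24-sh1, whereas 7 were higher and 4 lower in DDX24-sh2, with medians of -0.07 and 0.13. In both libraries together, 2 of these genes were called higher and 4 lower, beside 14.0% and 20.6% of all genes. Named for the largest difference in the same direction in both libraries, 2 subunits of the exosome core were lower. EXOSC1 (451, 390 and 384 counts) had ratios of -0.31 and -0.31, and EXOSC6 (1240, 1089 and 946 counts) had -0.29 and -0.47.

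SMG1 belongs to a kinase family that shares assembly factors. Among 8 related kinases and assembly factors, 2 were higher and 3 lower in DDX24-sh1 and 3 were higher and 2 lower in DDX24-sh2, with medians of -0.0010 and 0.09. PRKDC, the DNA-dependent protein kinase, had 11065, 8362 and 8897 counts and ratios of -0.50 and -0.40. TRRAP, a pseudokinase of chromatin complexes, had 3956, 3241 and 2898 counts and ratios of -0.39 and -0.53. ATR, a kinase of the DNA damage response chosen for naming with its values known, had 706, 987 and 1021 counts and was higher in both, at 0.38 (0.24 to 0.52) and 0.45 (0.31 to 0.59). Kinases of the family thus lay on both sides of the control.

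The last list holds 19 genes with transcripts known as NMD-sensitive, for which 1 was higher and 16 lower in DDX24-sh1, beside 23.6% and 29.5% of all genes. In DDX24-sh2, 6 were higher and 11 lower, beside 23.6% and 30.8%. Their medians were -0.29 and -0.18, and their ratios ranged from -2.92 to 0.36 and from -3.60 to 0.98. The 2 genes named next had the largest difference in the same direction in both libraries. ATF3, a stress-induced transcription factor, had 457, 63 and 38 counts and ratios of -2.92 and -3.60, and GADD45B, a growth arrest gene, had 800, 442 and 376 counts and ratios of -0.95 and -1.17. Many genes of this list are also set by stress signalling or by splicing, and counts per gene do not show whether the transcripts that NMD removes were more or less abundant. They are therefore no readout of NMD activity.

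**Figure D5:**
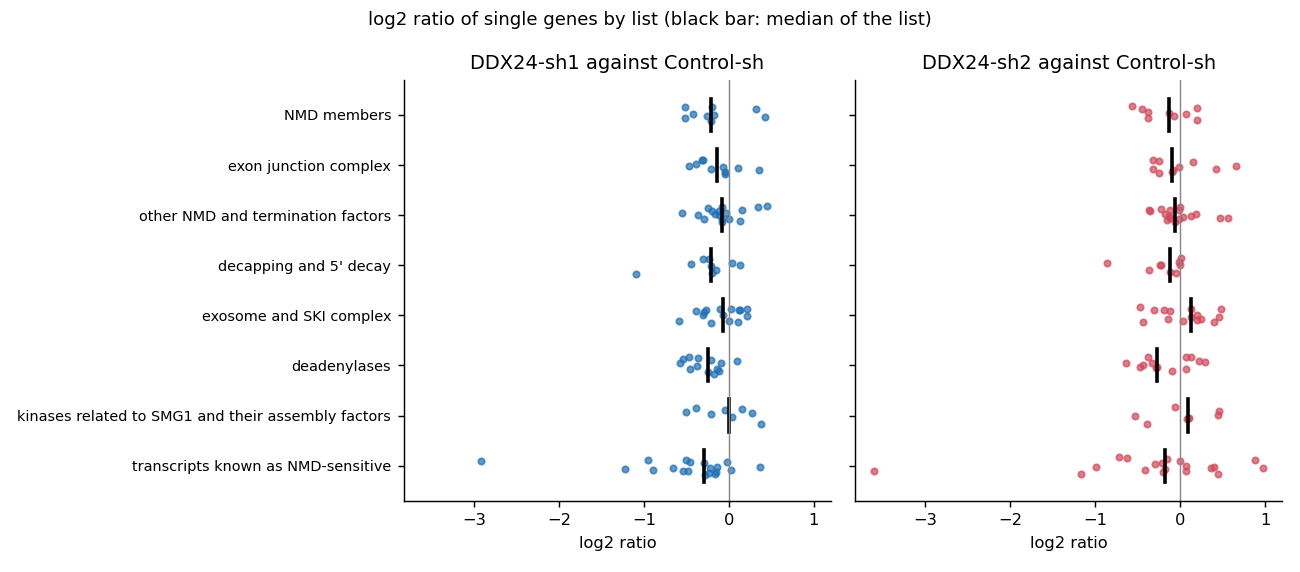
Log2 ratio (x axis) of single genes of the 9 NMD factors and of 7 other lists (y axis) in each shRNA library against Control-sh, 1 point per gene, with the median as a black bar. The NMD factors have medians of -0.21 and -0.13, and the exosome and SKI complex has medians of -0.07 and 0.13.

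For the 3 members with the largest difference in the same direction in both libraries, the genes nearest in the pair of log2 ratios were sought among the 9661 genes averaging 10 CPM or more. ZNF384 (-0.51 and -0.44) and NXT1 (-0.52 and -0.45) were nearest to SMG1, and 146 genes lay within a distance of 0.1 log2 units. STK24 (-0.43 and -0.57) and PATJ (-0.44 and -0.56) were nearest to SMG9, with 159 genes within that distance. RELA (-0.26 and -0.38) and PCNX1 (-0.26 and -0.38) were nearest to SMG5, with 310 genes. With 2 ratios that share a control, many genes have a like pattern.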

How the data were processed

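The authors deposited whole-number counts per gene, without normalization, and FPKM values for the same 58735 genes in each of 3 A549 libraries. The submitters' processing notes name Bowtie2 2.0.6, TopHat2 2.0.9, Cufflinks 2.1.1 and Cuffdiff 2.1.1 without their roles, and the counter and strandedness are not given in the sources used here. Gene identifiers, starts and ends matched GENCODE 29 (GRCh38) for all 58735 genes, and names for 58708. Libraries were scaled by TMM with edgeR 4.0.16 in R 4.3.3 (factors 0.991, 0.997 and 1.01), and log2 ratios used CPM after adding 2 as a prior count. As each of 3 groups has 1 library, no count model was fitted. Exact 95% Clopper-Pearson intervals of the ratio of 2 counts were computed with scipy 1.17.1 in Python 3.11.15. The code was checked on counts simulated with counting error only, which cannot test for variation between cultures. DESeq2 1.42.0 size factors, total counts, a prior count of 0.5, other filters and thresholds, and the deposited FPKM as log2(FPKM + 0.1), with labels as given and exchanged, were the alternatives. The members and lists were chosen with earlier results of these data known. Named were the 9 members, DDX24, the members' pseudogenes, of each other list up to 2 genes with the largest difference in the same direction in both shRNA libraries, and for 3 members the 2 nearest genes. ATR was named outside this rule, with its values known. Shared words and overlaps were taken from the GENCODE 29 transcripts and promoters from RefSeq.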

Additional observations from a re-analysis of the deposited data

Results flagged for a closer look

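UPF3A was the one member below Control-sh in one shRNA library and above it in the other, DDX24-sh2 being the higher by a log2 ratio of 0.42 (0.25 to 0.58). It is given here because the shRNA libraries lay on opposite sides of the control, and the difference between them was not tested, as each has 1 library. The copies of UPF3A had 3 counts in the control library and 28 and 11 in those of sh1 and sh2. With these added, the log2 ratio in DDX24-sh1 was -0.15 (-0.32 to 0.02), so that library was then no longer below the control beyond counting error.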

How the results depend on the processing

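No paired analysis was possible because each group has 1 library. Of 27 log2 ratios (9 members in 3 comparisons), all 27 kept their sign, within their intervals, under DESeq2 size factors, total counts, a prior count of 0.5 and the FPKM with exchanged shRNA labels, with shifts of at most 0.0131, 0.0290, 0.00187 and 0.0190. These settings change the scaling or the added constant and not the counts, so close values were built in. With named pseudogenes added, 5 of 6 ratios of SMG1 and UPF3A stayed within their intervals. SMG1 in DDX24-sh2 moved to -0.37, outside its interval of -0.51 to -0.38. With the FPKM labels as given, the shRNA libraries trade places by construction. DDX24-sh2 against DDX24-sh1 was then 0.21 for UPF1, -0.12 for UPF2, -0.41 for UPF3A, -0.38 for UPF3B, 0.12 for SMG5, 0.25 for SMG6, 0.22 for SMG8 and -0.27 for DDX24. UPF3A was at 0.21 and -0.20 against the control, the medians of the exosome and SKI list were 0.14 and -0.055, and those of the NMD-sensitive list were -0.17 and -0.28. Leaving out each member in turn, the median of the members stayed between -0.24 and -0.21 for DDX24-sh1 and between -0.25 and -0.10 for DDX24-sh2. Of all genes, 325 were at least 2-fold higher and 318 lower in DDX24-sh1, against 1062 and 1153 at 1.5-fold, 1672 and 1880 without a filter, and 69 and 137 for genes averaging 10 CPM or more. In DDX24-sh2 these were 404 and 430, against 1202 and 1330, 2172 and 1764, and 77 and 197. With the FPKM they were 249 and 256 by the labels as given, and 305 and 356 with the labels exchanged. No member passed 1.5-fold. With the length of the principal transcript in place of the gene model, an alternative chosen after seeing the data, the ratio of UPF3A to UPF3B was 1.22 in Control-sh, 1.504 for DDX24-sh1 and 1.53 for DDX24-sh2 and so turned from below to above 1. Intervals cover counting error only, and with 1 culture per group, differences between cultures cannot be told apart from those of the knockdown.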
